A study of Macaca fascicularis with 3 samples.

Results

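The miR-181 family was represented by 5 of the 432 mature miRNA names counted in the kidney cortex of the cynomolgus monkey (Macaca fascicularis). They were found by name, as every row with the stem miR-181a, miR-181b, miR-181c or miR-181d and any arm or copy suffix. The names were miR-181a-5p, miR-181a-3p, miR-181b-5p, miR-181c-5p and miR-181d, where 5p and 3p give the arm of the hairpin precursor that a mature miRNA comes from and miR-181d carries no arm suffix. Small RNA had been sequenced in 3 naïve monkeys aged 2 to 3 years, 1 library per monkey, from frozen pieces of the outer layer of the kidney, which holds glomeruli and most proximal tubules. The 3 libraries form a single group with no treatment and no genotype, so values could be compared only between miRNAs and between animals.

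miRNAs are short RNAs that guide Argonaute proteins to messenger RNAs and lower their output, and the bases near the 5′ end, the seed, largely decide which messages are bound. The 5p strands of miR-181a, miR-181b, miR-181c and miR-181d share a seed and are the guide strands of their hairpins, while the 3p strand is the partner usually degraded. In mammals the genes lie in clusters, miR-181a beside miR-181b and miR-181c beside miR-181d. The family is best known from lymphocytes, where miR-181a sets the sensitivity of T-cell receptor signalling. In vascular endothelium miR-181b dampens NF-κB signalling, and in human kidney miR-181a has been described as a regulator of renin messenger RNA.

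Listed counts per library lay between 3957188 and 4707892, and a floor of 3 counts corresponded to 0.637 to 0.758 CPM (counts per 1000000 listed counts). Names of the tubule-enriched miR-204, miR-215, miR-192 and miR-194 took 5.31% to 6.20% of the counts in each library. Reads carried no molecular identifiers, so the intervals below cover counting error only. Nothing in the labels describes repeat libraries of an animal, and the spread between animals therefore includes that between preparations. In a bulk tissue, fewer cells of a type and less of a miRNA per cell cannot be told apart.

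The family as a whole was a minor but well covered part of the cortex miRNAs. Its 5 names summed to 11391, 18645 and 12301 counts in animals 1, 2 and 3. With Wilson 95% confidence intervals, these counts made 0.265% (0.260 to 0.269) of the library in animal 1. The share was 0.396% (0.390 to 0.402) in animal 2 and 0.311% (0.305 to 0.316) in animal 3. The mean was 0.324% ± 0.0667 (SD, n = 3). Animal 2 was highest and animal 1 lowest, and the intervals did not overlap. After scaling by the trimmed mean of M values (TMM), the summed level of the family spanned 1.44-fold between animals.

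miR-181a-5p, the guide strand of miR-181a, carried most of the family. It had 9455, 15398 and 11039 counts in animals 1, 2 and 3, or 2196, 3271 and 2790 CPM. Animal 1 was the lowest of the 3. The mean of 2752 CPM ± 538 (SD, n = 3) put it at rank 56 of the 432 names, with ranks of 58, 49 and 51 in the single libraries. Its share of the family counts was 83.0%, 82.6% and 89.7%, a mean of 85.1% ± 4.02 (SD, n = 3). The names next to it in mean level were miR-218-5p above, with 2823 CPM ± 501, and miR-660-5p below, with 2658 CPM ± 330 (both SD, n = 3). Their means differ from that of miR-181a-5p by less than the SD of any of the 3.

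miR-181b-5p, the guide from the same clusters, was the second name. It had 1526, 2619 and 723 counts, or 354, 556 and 183 CPM, in animals 1, 2 and 3. Here animal 3 and not animal 1 was lowest. The mean was 364 CPM ± 187 (SD, n = 3), at rank 121. Its SD was 51.3% of its mean, against 19.6% for miR-181a-5p.

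The partner strand miR-181a-3p came next in level. Its counts were 273, 371 and 355, equal to 63.4, 78.8 and 89.7 CPM, with animal 1 lowest and animal 3 highest. The mean was 77.3 CPM ± 13.2 (SD, n = 3), at rank 190. No 3p name of miR-181b, miR-181c or miR-181d, and no second 3p name of miR-181a, was analysed here, so the gene copies behind the guides could not be compared through their 3p strands.

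The miR-181c and miR-181d pair was far lower. miR-181c-5p had 130, 240 and 182 counts, or 30.2, 51.0 and 46.0 CPM, and animal 1 was again lowest. Its mean was 42.4 CPM ± 10.9 (SD, n = 3), at rank 218.

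miR-181d had 7, 17 and 2 counts, which is 1.63, 3.61 and 0.505 CPM, and ranked 407. In animal 3 it was at or under the floor of 3 counts. The TMM-scaled ratio of animal 2 over animal 3 was 6.39, with an exact 95% counting interval of 1.52 to 57.0. Between animals 1 and 3 the ratio was 2.99, and its interval of 0.570 to 29.5 includes equality. In the authors' deposited table miR-181d was paired with hsa-miR-181b-5p, the human name also given to miR-181b-5p, and not with a human miR-181d. It was among 32 of the 405 names with a human counterpart whose counterpart differed in number or letter, and 13 human names were given to more than 1 monkey name. How reads matching both names were counted is not given in the sources used here, so the division of reads between miR-181b-5p and miR-181d is uncertain.

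**Figure D1:**
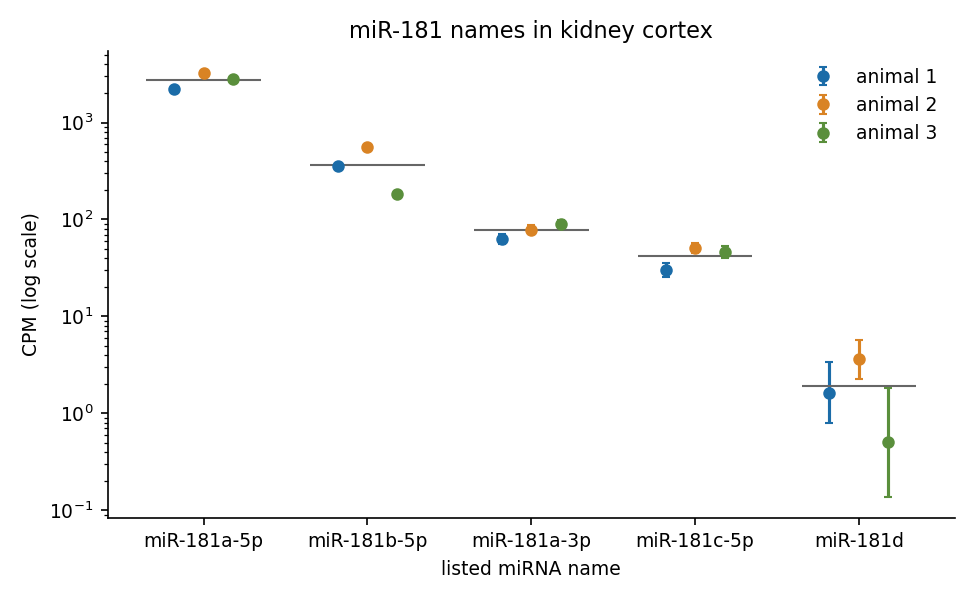
Level of the 5 miR-181 names in CPM on a log scale, with 1 point per animal, Wilson 95% counting intervals as bars and the mean over 3 animals as a grey line. miR-181a-5p lies at 2196 to 3271 CPM and miR-181d at 0.505 to 3.61 CPM, and animal 3 is the lowest point for miR-181b-5p and miR-181d only.

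The order miR-181a-5p, miR-181b-5p, miR-181a-3p, miR-181c-5p, miR-181d was the same in all 3 animals. miR-181a-5p exceeded miR-181b-5p by a mean log2 difference in CPM of 3.04 ± 0.77 (SD, n = 3), and miR-181b-5p exceeded miR-181a-3p by 2.11 ± 0.95. The closest neighbours were miR-181a-3p and miR-181c-5p, which differed by 0.89 ± 0.23. The last step, from miR-181c-5p to miR-181d, was 4.85 ± 1.45, but in animal 3 it rested on 2 counts of miR-181d, under the floor, and the mean over animals 1 and 2 was 4.02. An exact permutation test that flips signs over the animals (two-sided) gave p = 0.25 for each of the 4 pairs, the lowest value possible with 3 animals, and also 0.25 after Benjamini-Hochberg adjustment over the 4.

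Each name was next compared between the 3 libraries by a chi-square test of homogeneity fitted on every name whose mean count reached 10. Of the 5 members 4 entered, and miR-181d did not. The test called 4 of these 4, where 80.6% of the 391 names tested were called, so the count of members called is near the background. The adjusted p (chi-square, Benjamini-Hochberg over 391 names) was 1.41e-178 for miR-181a-5p, 3.22e-140 for miR-181b-5p, 1.23e-06 for miR-181a-3p and 9.23e-06 for miR-181c-5p. These values set separate animals against counting error and compare no conditions. For miR-181c-5p the call rested on animal 1. Without this animal its adjusted p was 0.933 and its span fell to 1.01-fold, and over all the alternatives the adjusted p ranged from 4.23e-07 to 0.933.

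In size, the differences between animals were modest except for miR-181b-5p. The span, defined as TMM-scaled CPM in the highest animal over that in the lowest, was 1.43-fold for miR-181a-5p, 1.52-fold for miR-181a-3p, 1.64-fold for miR-181c-5p and 2.72-fold for miR-181b-5p. The median span of the 391 names was 1.71-fold. Thus 1 of 4 members spanned more than 2-fold, against 39.9% of all names tested. miR-181b-5p had a larger span than 79.8% of the tested names and miR-181a-5p than 31.2%. Among the 53 other names with a mean count within 2-fold of that of miR-181b-5p, the median span was 1.62-fold. The same median was 1.40-fold for miR-181a-5p (38 names), so its 1.43-fold was ordinary for its level. It was 1.76-fold for miR-181a-3p (65 names) and 1.80-fold for miR-181c-5p (76 names), both above the member's own span. The span of miR-181b-5p was 1.71-fold without animal 2 and 1.51-fold without animal 3.

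The biological coefficient of variation per name, estimated with edgeR, was 0.320 for miR-181a-5p, 0.451 for miR-181b-5p, 0.393 for miR-181a-3p and 0.395 for miR-181c-5p. Its median over the 391 names was 0.402. Only miR-181b-5p among the 4 members lay above that median. The trend that edgeR fitted over level was itself above the median for miR-181b-5p, at 0.435, and the value of this name lay above it. For miR-181a-5p, miR-181a-3p and miR-181c-5p the trend was 0.369, 0.463 and 0.451, and each lay below it. These estimates are drawn toward the trend by edgeR, so nearness to it is partly built in. Without such moderation, the SD of CPM was 51.3% of the mean for miR-181b-5p and 19.6% for miR-181a-5p.

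**Figure D2:**
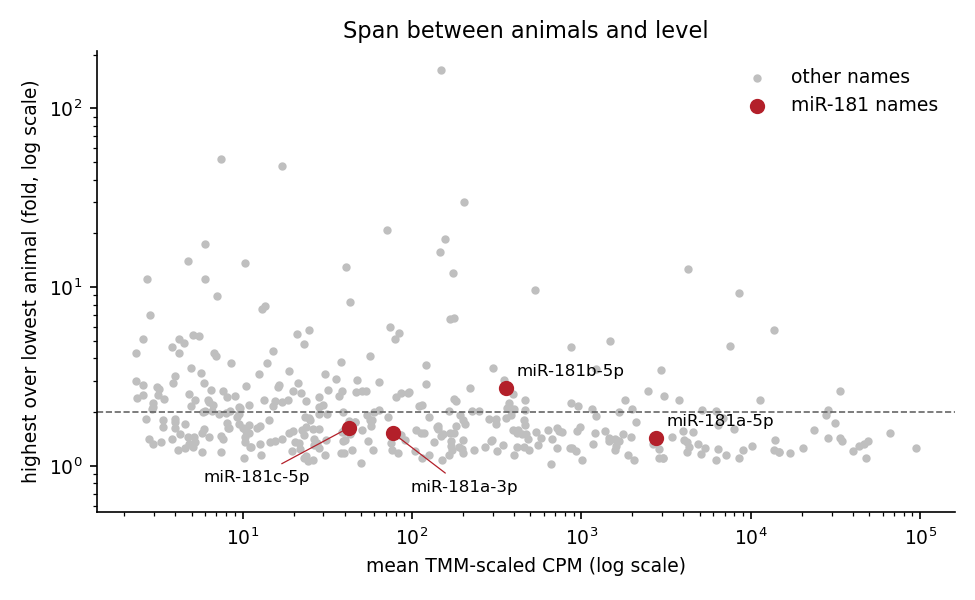
Span between animals (ratio of highest to lowest TMM-scaled CPM, log scale) against mean TMM-scaled CPM (log scale) for 388 tested names, with 3 further names at 0 counts in an animal not drawn. The dashed line marks 2-fold. miR-181b-5p lies above it at 2.72-fold, and the other 3 miR-181 names tested lie below it.

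Expressed as the log2 deviation of TMM-scaled CPM + 1 in an animal from the mean of the other animals, the members fell into different patterns. In animal 3 miR-181b-5p lay at -1.14, while miR-181a-5p lay at 0.19, miR-181c-5p at 0.35 and miR-181a-3p at 0.47. miR-181d lay at -1.15 there, but on 2 counts, under the floor. At 0.537 TMM-scaled CPM its deviation depends strongly on the 1 CPM added, so its closeness to that of miR-181b-5p carries little information. Of the other 390 names tested, 56 lay as low as miR-181b-5p or lower in that library. In animal 1 the deviations were -0.48 for miR-181a-5p, -0.43 for miR-181a-3p and -0.69 for miR-181c-5p, against 0.13 for miR-181b-5p. Under TMM, DESeq2, upper-quartile and total-count scaling alike, animal 1 was lowest for miR-181a-5p, miR-181a-3p and miR-181c-5p and animal 3 for miR-181b-5p and miR-181d. Which of animals 2 and 3 was highest changed with the scaling for miR-181a-5p and miR-181c-5p. With DESeq2 size factors, for example, miR-181a-5p stood at 3031 scaled CPM in animal 2 and 3034 in animal 3.

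Ratios within a library need no scaling and showed the same split of the guides. In animal 1, miR-181b-5p took 13.9% of its summed counts with miR-181a-5p (Wilson 95% interval 13.3 to 14.6). This share was 14.5% (14.0 to 15.1) in animal 2 and 6.15% (5.73 to 6.60) in animal 3. The intervals of animals 1 and 2 overlapped, and that of animal 3 lay apart. In counts, miR-181a-5p exceeded miR-181b-5p 6.20-fold, 5.88-fold and 15.3-fold in animals 1, 2 and 3.

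miR-181c-5p, by contrast, kept a nearly constant relation to miR-181a-5p. Its share of their summed counts was 1.36% (1.14 to 1.61), 1.53% (1.35 to 1.74) and 1.62% (1.40 to 1.87) in the 3 animals, and all 3 intervals overlapped. The ratio of miR-181a-5p to miR-181c-5p was 65.8 ± 6.21 (SD, n = 3).

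**Figure D3:**
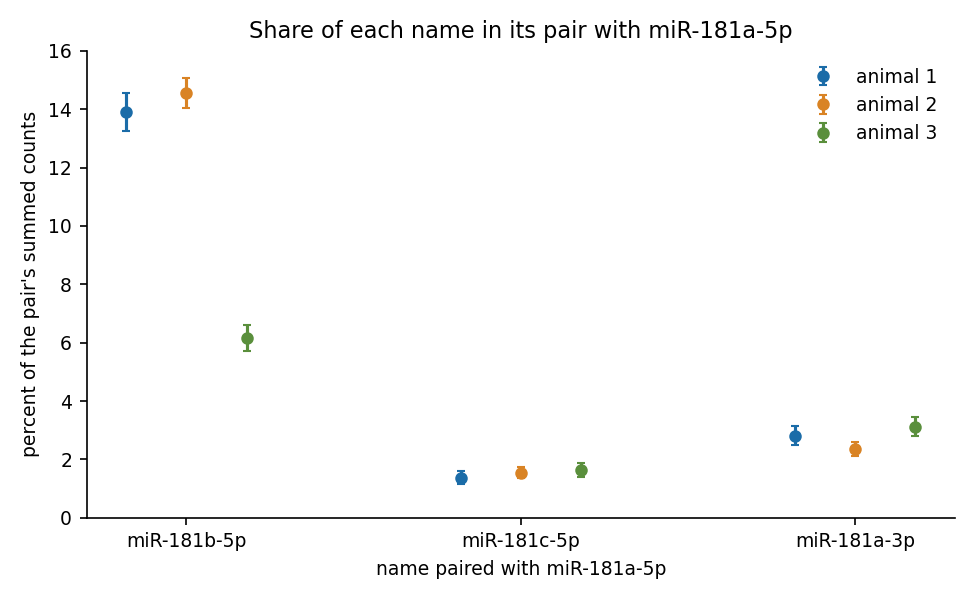
Percent of the summed counts of each pair that belonged to miR-181b-5p, miR-181c-5p or miR-181a-3p, each paired with miR-181a-5p, with 1 point per animal and Wilson 95% counting intervals as bars. miR-181b-5p lies at 13.9% and 14.5% in animals 1 and 2 and at 6.15% in animal 3, while miR-181c-5p stays between 1.36% and 1.62%.

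These ratios were set beside those of other related names, a description chosen after the values were seen. Pairs with the same number and arm and a different letter, both at a mean count of at least 100 and not identical in counts, numbered 42 from 28 families. The ratio of miR-181a-5p to miR-181b-5p spanned 2.60-fold over the 3 animals, and 6 of the 42 pairs spanned more. For miR-181b-5p and miR-181c-5p the span was 2.95-fold, exceeded by 4 pairs, and 1.08-fold between animals 1 and 2 alone. For miR-181a-5p and miR-181c-5p it was 1.20-fold, exceeded by 35 pairs. The median pair spanned 1.55-fold.

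Between animals 1 and 2 alone, the ratio of miR-181a-5p to miR-181b-5p differed by 1.05-fold, so the span rested on animal 3. Among the 39 pairs of other families, 6 spanned more than 2-fold, and 5 of these 6 deviated most in animal 3, as did 20 of all 39. Without animal 3, 1 of the 42 pairs spanned more than 2-fold. Leaving out any animal can lower a span but not raise it. The count of pairs over 2-fold was not made without animal 1 or animal 2, so whether its fall is particular to animal 3 was not tested. For miR-181a-5p over miR-181b-5p the span was 2.60-fold without animal 1 and 2.46-fold without animal 2. Pairs share names and libraries and are not independent, and whether a property of the library of animal 3 contributes to its low miR-181b-5p was not tested.

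**Figure D4:**
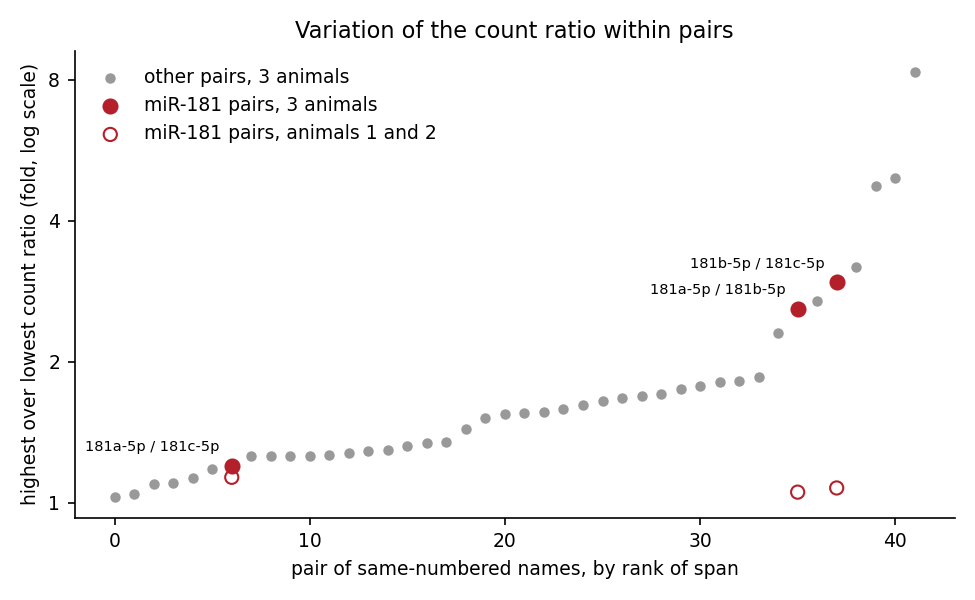
Span of the count ratio over 3 animals (highest over lowest, log scale) for 42 pairs of same-numbered, same-arm names in order of span, with the 3 miR-181 pairs in red and their spans between animals 1 and 2 alone as open circles. The 2 pairs that hold miR-181b-5p lie at 2.60-fold and 2.95-fold over 3 animals, and the pair without it lies at 1.20-fold.

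The use of the hairpin arms could be followed for miR-181a. miR-181a-5p exceeded miR-181a-3p by 34.6-fold, 41.5-fold and 31.1-fold in animals 1, 2 and 3. The mean log2 ratio, with 0.5 counts added to each arm, was 5.15 ± 0.21 (SD, n = 3), higher for the 5p arm in 3 of 3 animals. The same exact permutation test gave p = 0.25, again the lowest value possible. As the guide can come from more than 1 gene copy, this ratio sets all copies of the guide against the single 3p name listed.

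This arm ratio was typical in size, and its range was smaller than that of most hairpins. Of the hairpin names, 122 had both arms counted with a summed mean of 10 or more, and 68 of these had a mean ratio in favour of the 5p arm, with a median of 34.6-fold, and the geometric mean ratio of miR-181a was 35.4-fold. A larger 5p over 3p ratio was found in 33 hairpins. The log2 ratio of miR-181a ranged over 0.42 between animals, and 16 of the 122 hairpins had a smaller range. The median hairpin ranged over 1.20. Hairpins were not matched for counts here. Few counts on the lesser arm widen the range, and miR-181a-3p had 273 to 371. The part of depth in the small range of miR-181a was not tested.

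**Figure D5:**
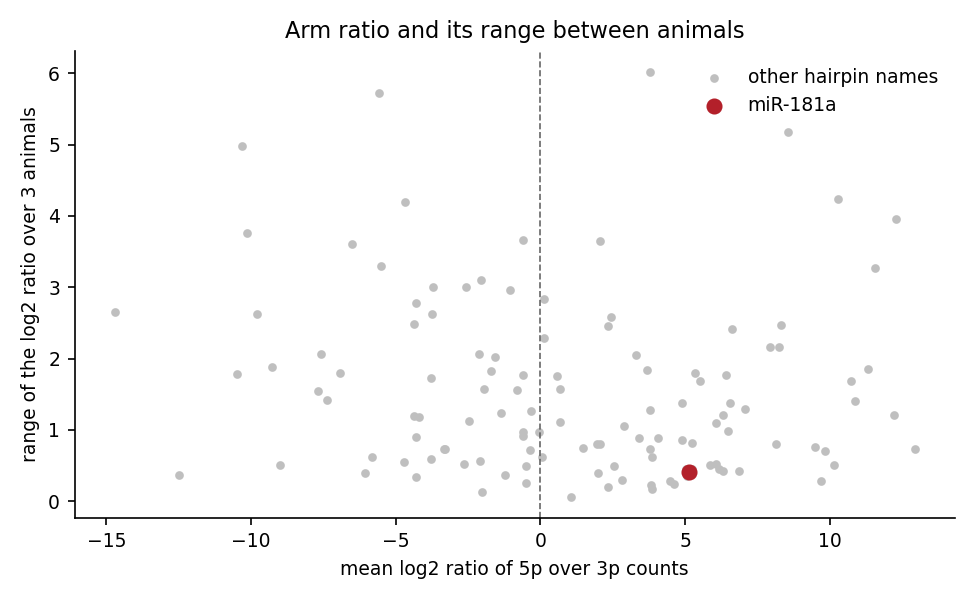
Range of the log2 ratio of 5p over 3p counts over 3 animals against its mean for 122 hairpin names, with miR-181a in red and a dashed line at equal arms. miR-181a lies at a mean of 5.15 with a range of 0.42, in the lower part of the plot.

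The names most like miR-181a-5p across the animals were sought among the 177 other names with a mean of at least 100 CPM, by the Euclidean distance between centred log2(TMM-scaled CPM + 1) profiles. With 3 libraries such a profile holds little information, and many names come close. The 5 nearest were miR-218-5p at a distance of 0.040, miR-214-3p at 0.057, miR-106a-5p at 0.12, miR-29b-2-5p at 0.17 and miR-183-5p at 0.17. Within the family miR-181c-5p lay at 0.18, with 6 of the 177 names closer, and miR-181a-3p at 0.30, with 22 closer. miR-181b-5p lay at 1.09, and 151 of the 177 names were closer to miR-181a-5p than it was.

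Because the family is known from lymphocytes and endothelium, its levels were set beside those of a leucocyte list and of miR-126, the endothelial miRNA. The leucocyte list (miR-142, miR-150, miR-155, miR-223 and miR-146a) had 6 names, all with a mean of at least 1 CPM and all 6 called different between libraries, against 80.6% of all names tested. It took 0.226%, 0.214% and 0.178% of the counts in animals 1, 2 and 3, lowest in animal 3, and spanned 1.18-fold after TMM scaling. Of its members, miR-155, which is induced on lymphocyte activation, had 74.5, 70.9 and 34.6 CPM, and miR-150-5p, abundant in mature lymphocytes, had 515, 457 and 635 CPM. miR-142-3p, found across blood cells, had 913, 975 and 691 CPM, and miR-142-5p had 52.0, 49.5 and 31.1 CPM. miR-146a-5p, a brake on inflammatory signalling, had 561, 344 and 231 CPM. miR-223, the myeloid member, had 141, 245 and 160 CPM, lowest in animal 1 and highest in animal 2, as was miR-181a-5p on the CPM scale.

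miR-181a-5p, lowest in animal 1, did not follow the order of the list's summed level, and miR-181b-5p, lowest in animal 3, shared its lowest animal. That match was not particular to the leucocyte list. By share of counts the tubule-enriched names (5.71%, 6.20% and 5.31%) were also lowest in animal 3, and highest in animal 2 as miR-181b-5p was. Their sum spanned only 1.04-fold after TMM scaling, and its members differed. In CPM, miR-204-5p and miR-204-3p had the order of the sum, and miR-215-5p was lowest in animal 3 but highest in animal 1. Both miR-192-5p and miR-194-5p were lowest in animal 2. The endothelial miR-126 had 49842, 39923 and 40779 CPM, highest in animal 1. The smooth muscle list (miR-143 and miR-145) took 2.82%, 3.18% and 4.44% and the erythroid list (miR-451, miR-144 and miR-486) 0.502%, 0.437% and 0.576%. The neuron list (miR-124 and miR-9) stayed between 0.0107% and 0.0131%, likewise lowest in animal 3 and highest in animal 2. It spanned 1.10-fold after TMM scaling, and of its names miR-9-5p alone had that order in CPM. The part of any of these cell types in the miR-181 levels was not tested.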

How the data were processed

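Small RNA libraries were made from 25 to 30 mg of cortex per animal and 12 ng of enriched small RNA, per the labels' protocols. Whole-number read counts per mature miRNA were deposited by the authors, who mapped reads to monkey miRNAs with 0 mismatches and kept names with at least 15 reads, per the file headers. The aligner, the miRNA release and the treatment of reads matching several names are not given in the sources used here. The second table holds a normalized signal made by the authors with edgeR, per the file headers, and 100% of its values equal the count times 1 factor per library within 0.1, and that factor is the inverse of the TMM factor.

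CPM used the total of listed counts. TMM factors came from edgeR 4.0.16 (R 4.3.3) and were 1.011, 1.052 and 0.940 in animals 1, 2 and 3. Names with a mean count of at least 10 entered the chi-square test, which was tested on simulated data, at an adjusted p threshold of 0.05. Dispersions came from estimateDisp with an intercept. DESeq2 1.42.0 gave alternative size factors. Named were all members, 5 names nearest in profile to the most abundant member, its neighbours in level, and fixed lists. Members and lists were chosen with earlier results of these data known. Mature sequences were not used here.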

Additional observations from a re-analysis of the deposited data

How the results depend on the processing

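The family share of 0.324% ranged from 0.288% to 0.353% when each animal was left out and rose to 0.631% without the 10 most abundant names, since the denominator is then smaller by construction. Counting identical names once gave 0.325%, and the authors' signal gave 0.324%. The number of members spanning more than 2-fold was 1 and ranged from 0 to 1 with an animal left out, being 0 without animal 2. Without animal 3 the 1 such member was not miR-181b-5p, at 1.51-fold, but miR-181d, which then entered, at 2.13-fold. The number was 2 of 5 with no filter on low counts, which lets miR-181d enter. Members called by the chi-square test numbered from 3 to 4 with an animal left out, 3 of 4 without animal 1 where miR-181c-5p was lost, and 5 of 5 with no filter, where miR-181d had an adjusted p of 0.0130 (0.130 without animal 3, when it also entered). Other scalings and a minimum mean count of 100 left 4 calls and 1 span over 2-fold. Without animal 3 the adjusted p of miR-181a-3p was 0.0436, within a range over alternatives of 7.69e-09 to 0.0436. The arm ratio of 5.15 (log2) stayed between 5.03 and 5.24, and the order of the members held in every pair of animals, where the smallest exact permutation p is 0.5. Leaving out animals for the ratio of miR-181a-5p to miR-181b-5p was chosen after seeing the data. The planned comparison of 3p strands between gene copies, and the arm ratio against the most abundant 3p name only, were not run, because a single 3p name was listed. No paired analysis was possible because all 3 libraries belong to 1 group. Depth limits miR-181d most among the members, with 26 counts in all. It also limits miR-181c-5p, with 130 to 240 counts per library, so its overlapping intervals and its lost call leave smaller differences undecided.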
